A study of Mus musculus with 6 samples.

Results

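Mitochondrial ribosomal proteins were taken as the genes of the deposited table whose symbols start with Mrpl or Mrps followed by a digit. They came to 78 of the 10539 genes listed, 29 named for the small subunit (Mrps) and 49 for the large subunit (Mrpl). All 78 had a mean of at least 1 FPKM over the 6 libraries, so none was lost to the filter on low values. FPKM is a fragment count divided by the length of the gene and by the size of the library, and because it is per length the levels of different genes can be set side by side.

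The RNA came from alveolar macrophages, the phagocytes that live in the airspaces of the lung, of C57BL/6 mice. All libraries come from cells that overexpress the transcription factor C/EBPβ. Group CEBPβ has 3 libraries of such cells and group CEBPβ-A has 3 of such cells given A20-Ad, an adenovirus named for A20, the ubiquitin-editing brake on NF-κB signalling encoded by Tnfaip3. The labels do not give the means of overexpression, the sex or age of the mice, any pooling of mice or any control virus in the CEBPβ cells. They number the libraries of a group without naming separate animals or cultures, so a p-value here covers library-to-library spread that could be technical.

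Mitochondrial ribosomes translate the messages of the mitochondrial genome, which encode 13 core subunits of the respiratory chain and ATP synthase. All of their proteins are encoded in the nucleus, made in the cytosol and imported. The small subunit binds and decodes the message, and the large subunit forms peptide bonds and passes the chain towards the inner membrane. Many of the proteins descend from bacterial ribosomal proteins, and others were added during the evolution of mitochondria. In alveolar macrophages, mitochondria burn the fatty acids that come with surfactant.

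The 13 markers of alveolar macrophages checked were all listed, with a summed level of 8247 to 9111 FPKM in CEBPβ and 8706 to 9634 in CEBPβ-A. Of markers of other cells the table lists 4 of 11 for epithelium (summed 30.3 to 40.7 FPKM in CEBPβ and 34.6 to 67.9 in CEBPβ-A, highest in replicate 3; Sftpc, Sftpb and Epcam not among them), 4 of 9 for neutrophils (216 to 266 and 299 to 319; S100a9, Ly6g and Mpo not among them), 2 of 9 for stroma and endothelium (8.30 to 9.18 and 6.32 to 7.96), 0 of 10 for lymphocytes and 0 of 5 for red cells. Those listed were Scgb1a1, Cdh1, Krt8 and Ager for epithelium and S100a8, Csf3r, Cxcr2 and Camp for neutrophils. The summed neutrophil level was higher in every CEBPβ-A library than in every CEBPβ library, and the summed stromal level lower. These sums rest mostly on their highest genes, since the median listed level was 6.76 FPKM for neutrophils and 3.62 for epithelium. Relative to the CEBPβ mean, the median neutrophil marker stood at 0.11, 0.19 and −0.10 (log2) in CEBPβ-A replicates 1, 2 and 3. The median epithelial marker stood at 0.089, 0.10 and 0.090. Of the 2 stromal genes listed only 1 was tested. Of 4 neutrophil markers tested, 3 had a log2 difference above 0, against 46.6% of all tested genes. In 1 of them every CEBPβ-A library lay above every CEBPβ library, against 7.89%. The part of other cell types in the results on ribosomal proteins was not tested. The first principal component of log2 levels set CEBPβ-A replicate 3 at 25.7, against −11.7 to −0.095 for the remaining 5 libraries, and values without it are given for the subunits, for the groups set beside them and for the named members with a difference of at least 0.1 (log2) that it changed by over 1.5 times. Tnfaip3 had 8.76, 17.7 and 19.2 FPKM in CEBPβ and 7.94, 15.5 and 7.32 in CEBPβ-A (log2 difference −0.53, limma adjusted p = 0.606). The two-sided exact permutation p was 0.2, where the design allows no less than 0.1. A higher level in the libraries labelled CEBPβ-A is thus not seen at the mouse gene, and directions below are between libraries as labelled. Cebpb had 420.0, 368 and 500.0 FPKM in CEBPβ and 363, 378 and 492 in CEBPβ-A (log2 difference −0.065, limma adjusted p = 0.888).

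The 78 genes lie on 17 chromosomes, with 11 of them on chromosome 11 and 8 on chromosome 17. For 33 of 78 members (42.3%) the annotation places the start of another protein-coding gene on the opposite strand within 1000 bases of their own start, against 17.7% of the 9617 genes tested, a difference that was described and not tested. Several such partners also serve mitochondria. Mrps11 lies head to head with Mrpl46, so that a small and a large subunit gene share a start region. Mrps12, the protein of the decoding centre, lies head to head with Sars2, the mitochondrial seryl-tRNA synthetase. Mrpl43 does so with Twnk, the helicase of mitochondrial DNA, and Mrpl47 and Mrpl36 with the complex I genes Ndufb5 and Ndufs6.

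Start regions were read from RefSeq (GRCm38.p6) as 250 bases before and 50 after each start, and 65 of 78 members had a window within 1000 bases of their deposited start. Short motifs were searched on both strands, namely GCATGCGC for the factor NRF1, CCGGAAGT for the ETS factors such as GABP, AAGATGGC for YY1 and CACGTG for the E-box of MYC and its relatives. NRF1 and GABP are known as regulators of nuclear genes for mitochondria. The longer palindrome GCGCATGCGC holds the NRF1 letters on both strands. A total of 4 windows are shown for what they hold: the region shared by a small and a large subunit gene, the region shared with a mitochondrial tRNA synthetase, the window with the most NRF1 letters, and the member with the largest difference between groups. They lie on GRCm38.p6 at chr7:78782881-78783180 (plus strand), chr7:28741772-28742071 (minus), chr13:14612988-14613287 (minus) and chr3:95871465-95871764 (minus), and each is written 5′ to 3′ on the strand of the gene with the motif letters in capitals.
Mrps11: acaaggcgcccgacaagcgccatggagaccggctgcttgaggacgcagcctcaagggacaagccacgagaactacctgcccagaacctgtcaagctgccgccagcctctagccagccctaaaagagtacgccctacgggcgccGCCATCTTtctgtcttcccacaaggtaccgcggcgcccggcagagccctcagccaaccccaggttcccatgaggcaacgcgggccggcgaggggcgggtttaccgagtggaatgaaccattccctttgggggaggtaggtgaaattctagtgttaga
Mrps12: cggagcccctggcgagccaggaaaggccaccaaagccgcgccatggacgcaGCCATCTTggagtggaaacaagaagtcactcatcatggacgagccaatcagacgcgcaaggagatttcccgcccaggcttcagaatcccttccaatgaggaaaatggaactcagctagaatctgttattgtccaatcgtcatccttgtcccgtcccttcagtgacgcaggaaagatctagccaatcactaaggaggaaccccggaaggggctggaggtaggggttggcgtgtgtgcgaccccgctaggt
Mrpl32: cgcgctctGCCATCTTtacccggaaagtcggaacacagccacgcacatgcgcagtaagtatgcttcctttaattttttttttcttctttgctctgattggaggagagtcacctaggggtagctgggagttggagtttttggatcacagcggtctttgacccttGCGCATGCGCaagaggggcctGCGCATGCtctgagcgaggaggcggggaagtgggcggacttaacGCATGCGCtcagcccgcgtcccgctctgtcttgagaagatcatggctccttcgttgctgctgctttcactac
Mrps21: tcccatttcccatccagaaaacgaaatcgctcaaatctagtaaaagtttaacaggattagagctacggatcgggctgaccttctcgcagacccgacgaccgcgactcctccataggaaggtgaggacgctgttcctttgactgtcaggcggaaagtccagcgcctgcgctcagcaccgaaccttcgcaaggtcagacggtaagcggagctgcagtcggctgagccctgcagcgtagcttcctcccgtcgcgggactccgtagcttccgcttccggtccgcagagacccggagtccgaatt

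The capitals in the Mrps11 and Mrps12 windows are the YY1 letters on the opposite strand. The RefSeq starts of Mrps11 and Mrpl46 are 42 bases apart (in the deposited table the genes overlap at their starts), so both lie in the first window shown. Mrpl32 has the YY1 letters near its left end and the NRF1 letters at 3 places, one of them the full palindrome. No motif searched is present in the Mrps21 window, which says nothing about the factors themselves. Over the 65 windows the NRF1 letters were present in 7 (10.8%) against 6.36% of 7011 windows of tested genes, the ETS letters in 10 (15.4% against 10.2%), the YY1 letters in 9 (13.8% against 5.73%) and the E-box in 4 (6.15% against 11.3%). At least 1 of the first 3 motifs was present in 24 windows (36.9% against 20.7%). These shares are descriptions, and a match is not a bound site. The 7 members with the NRF1 letters, 6 of them of the large subunit, had a median log2 difference between CEBPβ-A and CEBPβ of −0.030, and the other members with a window 0.15, an observation made after the values were seen. Medians with and without the letters were 0.14 and 0.13 for ETS, 0.16 and 0.12 for YY1 and 0.19 and 0.13 for the E-box.

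Levels of the 78 transcripts spread over a range of 1.06 to 33.1 FPKM, with medians of 7.24 FPKM for the small and 9.17 for the large subunit. The median of all tested genes was 7.57 FPKM, so these are transcripts of ordinary abundance in the macrophages, below the 28.3 FPKM of complex I subunits and the 121 FPKM of cytosolic ribosomal proteins. Levels of members named for one subunit thus spanned 31.1-fold in the small and 16.0-fold in the large subunit. The spread between libraries was far less, with a median coefficient of variation of 7.97% in CEBPβ and 11% in CEBPβ-A for the small subunit and 8.52% and 11.5% for the large. Of the large subunit 12 of 49 lay above 20 FPKM and 15 below 5, and of the small subunit 2 of 29 and 9 of 29.

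In the small subunit the highest levels belonged to Mrps21 (33.1 FPKM over the 6 libraries), a relative of bacterial S21, Mrps15 (24.6), a relative of S15, and Mrps18c (18.4), a relative of S18. The lowest were Mrps10 (1.06 FPKM), a relative of S10, Mrps35 (1.67) and Mrps22 (2.77), the last of which causes mitochondrial disease in humans when mutated. For the large subunit the top of the order was Mrpl34 (28.5 FPKM), Mrpl27 (27.6), which lies near the site of peptide bond formation, and Mrpl43 (27.2). Its lower end held Mrpl47 (1.78 FPKM), Mrpl15 (1.89) and Mrpl32 (2.22), which in yeast and mouse is cut to its mature form by the m-AAA protease. The 3 leading large subunit genes overlapped from library to library and cannot be ordered, whereas Mrps21 lay above Mrps15 in 5 of 6 libraries. Small subunit members added in mitochondria had a median of 4.37 FPKM (9 genes) and those with a bacterial relative 8.03 (16 genes), and in the large subunit the medians were 9.13 (19 genes) and 10.6 FPKM (29 genes).

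**Figure D1:**
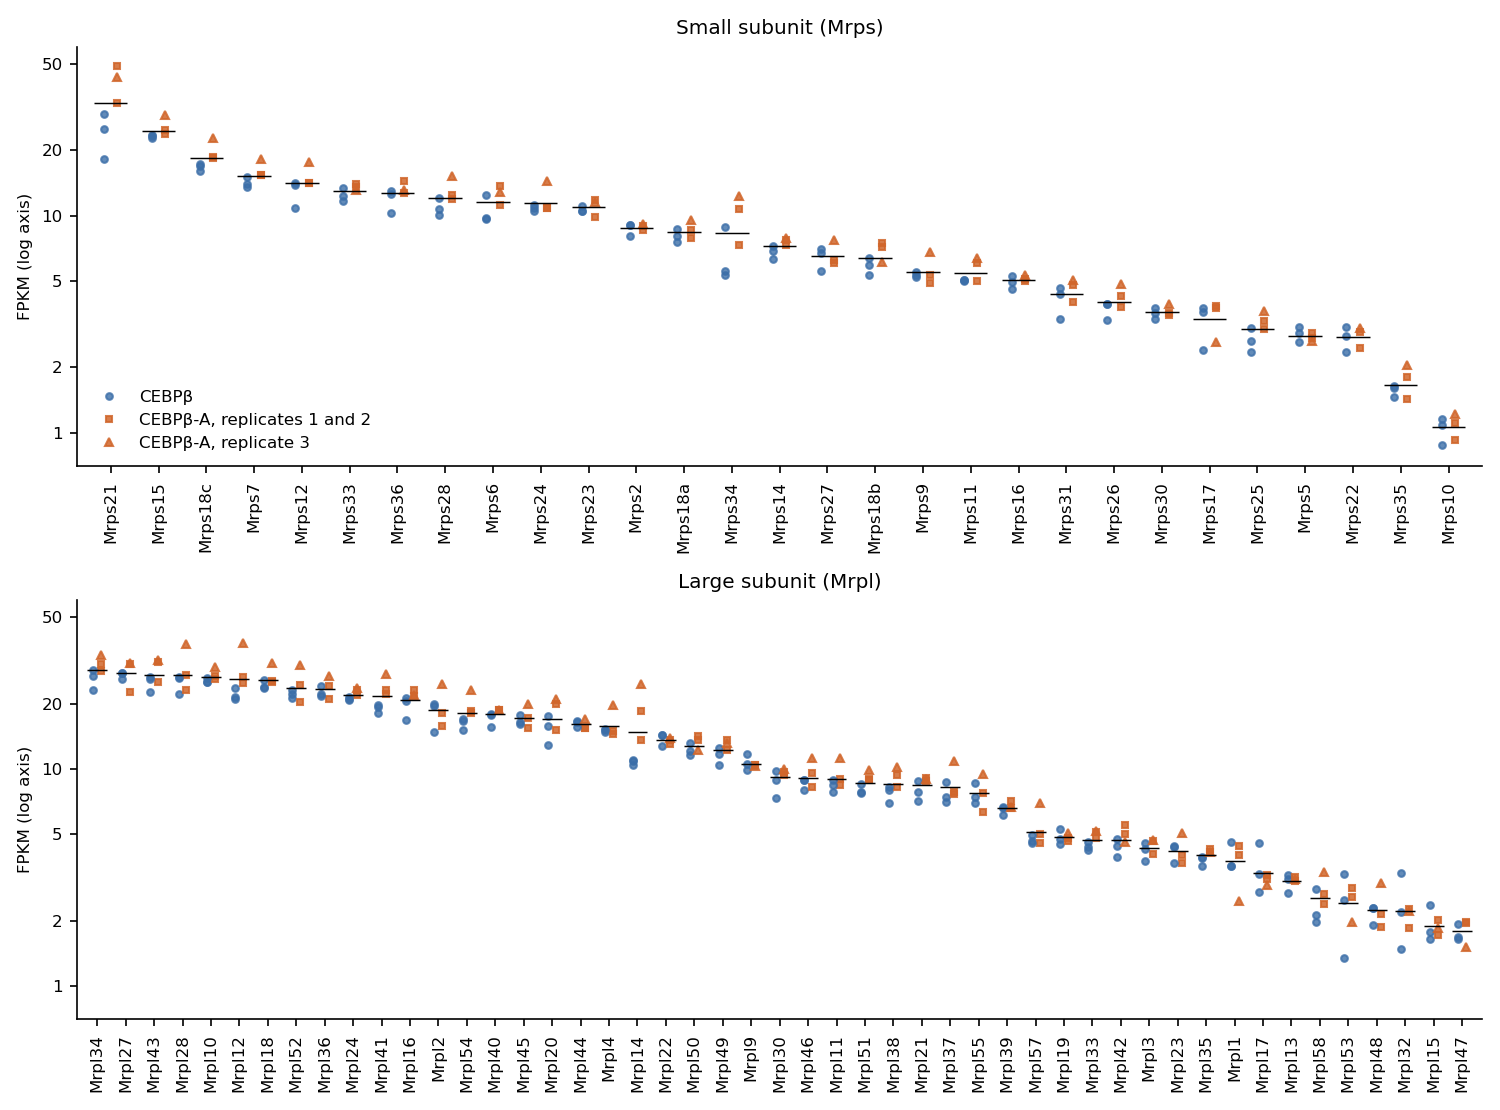
Level of each mitochondrial ribosomal protein transcript in FPKM on a log axis, for the small subunit (upper panel) and the large subunit (lower panel), ordered by the mean of 6 libraries (black bar). Blue points are the 3 CEBPβ libraries, orange squares CEBPβ-A replicates 1 and 2 and orange triangles CEBPβ-A replicate 3, and the order runs from 33.1 FPKM for Mrps21 down to 1.06 for Mrps10.

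Names and places do not always match. Mrps18a (8.39 FPKM) and Mrps30 (3.61) carry small subunit names but are built into the large subunit, and Mrps36 (12.7) belongs to the 2-oxoglutarate dehydrogenase complex. The paralogues Mrps18b and Mrps18c, both of the small subunit, had 6.41 and 18.4 FPKM. With members put in the subunit where they sit, the median log2 difference between groups was 0.14 for the small and 0.11 for the large subunit, as by name.

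No member passed the test between CEBPβ-A and CEBPβ, yet most had a slightly higher mean in CEBPβ-A. By limma on log2(FPKM + 1), a scale that understates the change of low genes, 0 of 29 small and 0 of 49 large subunit members passed an adjusted p of 0.05, where 0.0520% of all tested genes passed, 0.0208% upward and 0.0312% downward. The smallest adjusted p of a member was 0.588. At an unadjusted p under 0.05 there were 3 small and 4 large subunit members higher and 0 lower, against 3.76% and 4.42% of all genes. The log2 difference was above 0 for 28 of 29 small and 41 of 49 large subunit members, against 46.6% of all tested genes. Its median was 0.14 in the small subunit and 0.11 in the large, beside −0.013 over all genes tested. In 17 members (5 small, 12 large; 21.8%) every CEBPβ-A library lay above every CEBPβ library, against 7.89% of all genes, and in 0 the reverse held, against 8.86%. In such bulk RNA, a different share of cell types and a different level per cell cannot be told apart.

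CEBPβ-A replicate 3 was the highest library for most members. It had the highest level of all 6 libraries in 52 of 78 members (20 small, 32 large; 66.7%), against 25.4% of all tested genes. The same held for larger shares of complex I subunits (28 of 36, 77.8%) and cytosolic ribosomal proteins (82 of 87, 94.3%). Relative to the CEBPβ mean, the median member of the small subunit stood at 0.079, 0.12 and 0.25 (log2) in CEBPβ-A replicates 1, 2 and 3 and at 0.047, −0.0049 and 0.017 in CEBPβ replicates 1, 2 and 3. For the large subunit the values were 0.089, 0.057 and 0.20 in CEBPβ-A and 0.020, 0.010 and 0.0023 in CEBPβ. The 3 CEBPβ-A libraries were thus above the 3 CEBPβ libraries in both subunits, by a small margin in replicates 1 and 2. Small subunit members above their CEBPβ mean numbered 21, 21 and 27 of 29 in CEBPβ-A replicates 1, 2 and 3, and large subunit members 35, 32 and 41 of 49, where 47.6%, 51.5% and 44.1% of all tested genes were above. Without CEBPβ-A replicate 3 the median log2 difference was 0.091 in the small and 0.054 in the large subunit, with 22 of 29 and 34 of 49 above 0 against 50.4% of all genes. With the remaining 2 CEBPβ-A libraries, 8 small and 15 large subunit members lay above every CEBPβ library, against 11.2% of all genes, and 0 small and 1 large lay below, against 11.0%. Of the 17 members named by rule with a log2 difference of at least 0.1, 8 fell by over 1.5 times without replicate 3, and their values follow beside those with all libraries. The subunits stood close to each other, and the median of the small subunit minus that of the large lay between −0.015 and 0.063 in the 6 libraries. The summed level of all members was 816 to 831 FPKM in CEBPβ and 901, 884 and 1039 in CEBPβ-A replicates 1, 2 and 3, which is 0.281% to 0.298% and 0.307% to 0.332% of the listed FPKM.

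**Figure D2:**
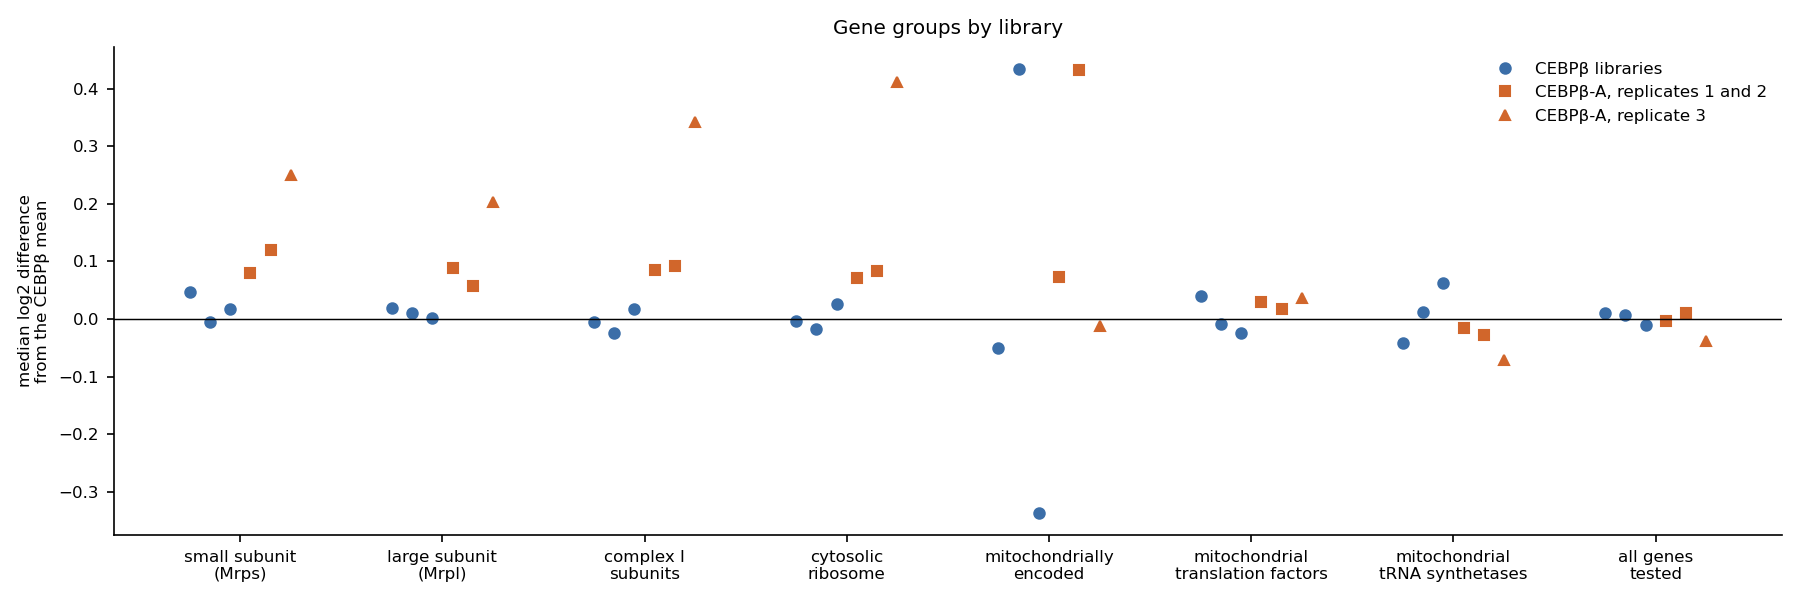
Median log2 difference from the CEBPβ mean in each library, for the subunits of the mitochondrial ribosome and related gene groups. Blue circles are CEBPβ libraries, orange squares CEBPβ-A replicates 1 and 2 and orange triangles CEBPβ-A replicate 3, which stands highest for both subunits (0.25 and 0.20), complex I and the cytosolic ribosome but not for mitochondrially encoded genes.

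In the small subunit the largest difference was that of Mrps21 (ENSMUSG00000054312.6, GRCm38 chromosome 3, 95862634 to 95871519). It had 25, 29.5 and 18.3 FPKM in CEBPβ replicates 1, 2 and 3 and 49.1, 33.2 and 43.5 in CEBPβ-A replicates 1, 2 and 3. All CEBPβ-A libraries lay above all CEBPβ libraries, although CEBPβ replicate 2 came close to CEBPβ-A replicate 2, and here replicate 1, not 3, was the highest. The means were 41.9 ± 8.04 against 24.3 ± 5.63 FPKM (SD, n = 3 each), a 1.73-fold ratio that did not pass (log2 difference 0.77, SE 0.19, limma adjusted p = 0.588).

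Mrps34, a protein found in mitochondrial but not bacterial ribosomes (ENSMUSG00000038880.13, GRCm38 chromosome 17, 24895116 to 24897502), had 5.54, 5.33 and 8.86 FPKM in CEBPβ and 10.8, 7.36 and 12.3 in CEBPβ-A. Its groups overlapped, since CEBPβ replicate 3 exceeded CEBPβ-A replicate 2 (log2 difference 0.56, SE 0.22, limma adjusted p = 0.588). Of its transcript 62.7% overlaps exons of Mapk8ip3 on the opposite strand, and reads of both cannot be told apart if counting ignored strand. The library kit was stranded, but no source used here says whether counting used strand. Mapk8ip3 itself had 5.50, 5.04 and 5.31 FPKM in CEBPβ and 4.76, 4.54 and 3.85 in CEBPβ-A. The same limit holds for Mrps25, whose transcript is covered for 75.6% by exons of Nr2c2, and for Mrps18b.

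Next in order of p came Mrps18c, with 17.4, 16 and 17 FPKM in CEBPβ and 18.5, 18.7 and 22.7 in CEBPβ-A. Its groups did not overlap, by a margin smaller than the distance of replicate 3 from the other CEBPβ-A libraries. Without replicate 3 its log2 difference was 0.14 in place of 0.23. Exons of Gm43511 on the same strand cover 27.3% of the Mrps18c transcript. Mrps28, Mrps25 and Mrps7 had log2 differences of 0.24, 0.23 and 0.18 (SE 0.11, 0.11 and 0.092), none past the threshold, and without replicate 3 Mrps28 and Mrps7 had 0.14 and 0.11. Of these Mrps7, a relative of bacterial S7 in the head of the subunit, had 14.1, 13.6 and 15.1 FPKM in CEBPβ and 15.5, 15.4 and 18.2 in CEBPβ-A, again separated by a narrow gap. Mrps15 and Mrps12 had log2 differences of 0.15 and 0.22 with all libraries and of 0.068 and 0.12 without replicate 3. Near 0 lay Mrps35 (0.10), Mrps10 (0.032), Mrps22 (0.024) and Mrps30 (0.027), with Mrps18a at 0.086 and Mrps36 at 0.16. The one small subunit member with a lower mean in CEBPβ-A was Mrps5, a relative of S5, at 2.61, 2.87 and 3.07 FPKM in CEBPβ and 2.74, 2.89 and 2.64 in CEBPβ-A (log2 difference −0.035, SE 0.090; 0.017 after quantile normalization), with groups that overlap fully.

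For the large subunit Mrpl14 led (ENSMUSG00000023939.7, GRCm38 chromosome 17, 45686322 to 45698495), a relative of bacterial L14 on the face that meets the small subunit. It had 10.5, 11.1 and 10.9 FPKM in CEBPβ and 18.5, 13.6 and 24.5 in CEBPβ-A. The CEBPβ libraries were tight and the CEBPβ-A libraries were all higher but far apart, with replicate 3 at the top. The ratio of means was 1.75 (18.9 ± 5.49 against 10.8 ± 0.303 FPKM, SD, n = 3 each), with a log2 difference of 0.71 (SE 0.18, limma adjusted p = 0.588). Exons of Tmem63b on the opposite strand cover 16.4% of its transcript.

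Mrpl41 (ENSMUSG00000036850.4, GRCm38 chromosome 2, 24974117 to 24975098), a member without a bacterial relative, had 19.3, 18.1 and 19.7 FPKM in CEBPβ and 22.2, 23.2 and 27.4 in CEBPβ-A. Here too the groups did not overlap, and the libraries within each group were closer than for Mrpl14 (log2 difference 0.33, SE 0.095, limma adjusted p = 0.588). Mrpl12 (ENSMUSG00000039640.7, GRCm38 chromosome 11, 120484613 to 120489065) forms the flexible stalk that recruits translation factors and has also been described as a partner of the mitochondrial RNA polymerase. It had 23.6, 21.5 and 21.1 FPKM in CEBPβ and 26.5, 25 and 38 in CEBPβ-A, with replicate 3 far above the rest. The difference was 0.40 with all libraries (log2, SE 0.15, limma adjusted p = 0.588) and 0.22 without replicate 3.

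Mrpl54, Mrpl38 and Mrpl34 followed, with log2 differences of 0.27 (0.16 without replicate 3), 0.23 and 0.23. Mrpl54 had 15.2, 17 and 16.6 FPKM in CEBPβ and 18.5, 18.1 and 23.1 in CEBPβ-A. Mrpl38 had 8.01, 6.96 and 8.26 FPKM in CEBPβ and 8.28, 9.41 and 10.2 in CEBPβ-A. Both were separated between groups, Mrpl38 by a gap far below its spread, while Mrpl34 overlapped. Mrpl43 and Mrpl27, of similar abundance, had log2 differences of 0.22 and 0.028. Mrpl58, the peptidyl-tRNA hydrolase that was taken into the particle as a subunit, stood at 0.20 (0.10 without replicate 3), and Mrpl45, which anchors the ribosome to the inner membrane, at 0.054 (−0.038 without replicate 3).

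Large subunit members with a lower mean in CEBPβ-A were 8 of 49, and none of them was separated between groups. Mrpl17, a relative of L17 near the exit of the peptide tunnel, had the largest such difference, with 2.72, 3.27 and 4.55 FPKM in CEBPβ and 3.25, 3.10 and 2.93 in CEBPβ-A (log2 difference −0.12, SE 0.15). Its CEBPβ-A libraries lay within the range of the CEBPβ libraries. Mrpl1, which in bacteria forms the stalk where spent tRNA leaves, had 3.57, 4.61 and 3.58 FPKM in CEBPβ and 4.0, 4.41 and 2.47 in CEBPβ-A (log2 difference −0.11), with CEBPβ-A replicate 3 the lowest of all and a log2 difference of 0.087 without it. The other named members of this kind were Mrpl9 (−0.038), Mrpl22 (−0.030), a lining protein of the peptide tunnel, Mrpl44 (−0.027), which has the fold of RNase III, Mrpl32 (−0.061) and Mrpl15 (−0.026, but 0.018 after quantile normalization), all within 1 SE of 0, and Mrpl47 lay at 0.029. Mrpl53 cannot be given with confidence, since its whole transcript overlaps that of Gm42688 on the same strand.

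**Figure D3:**
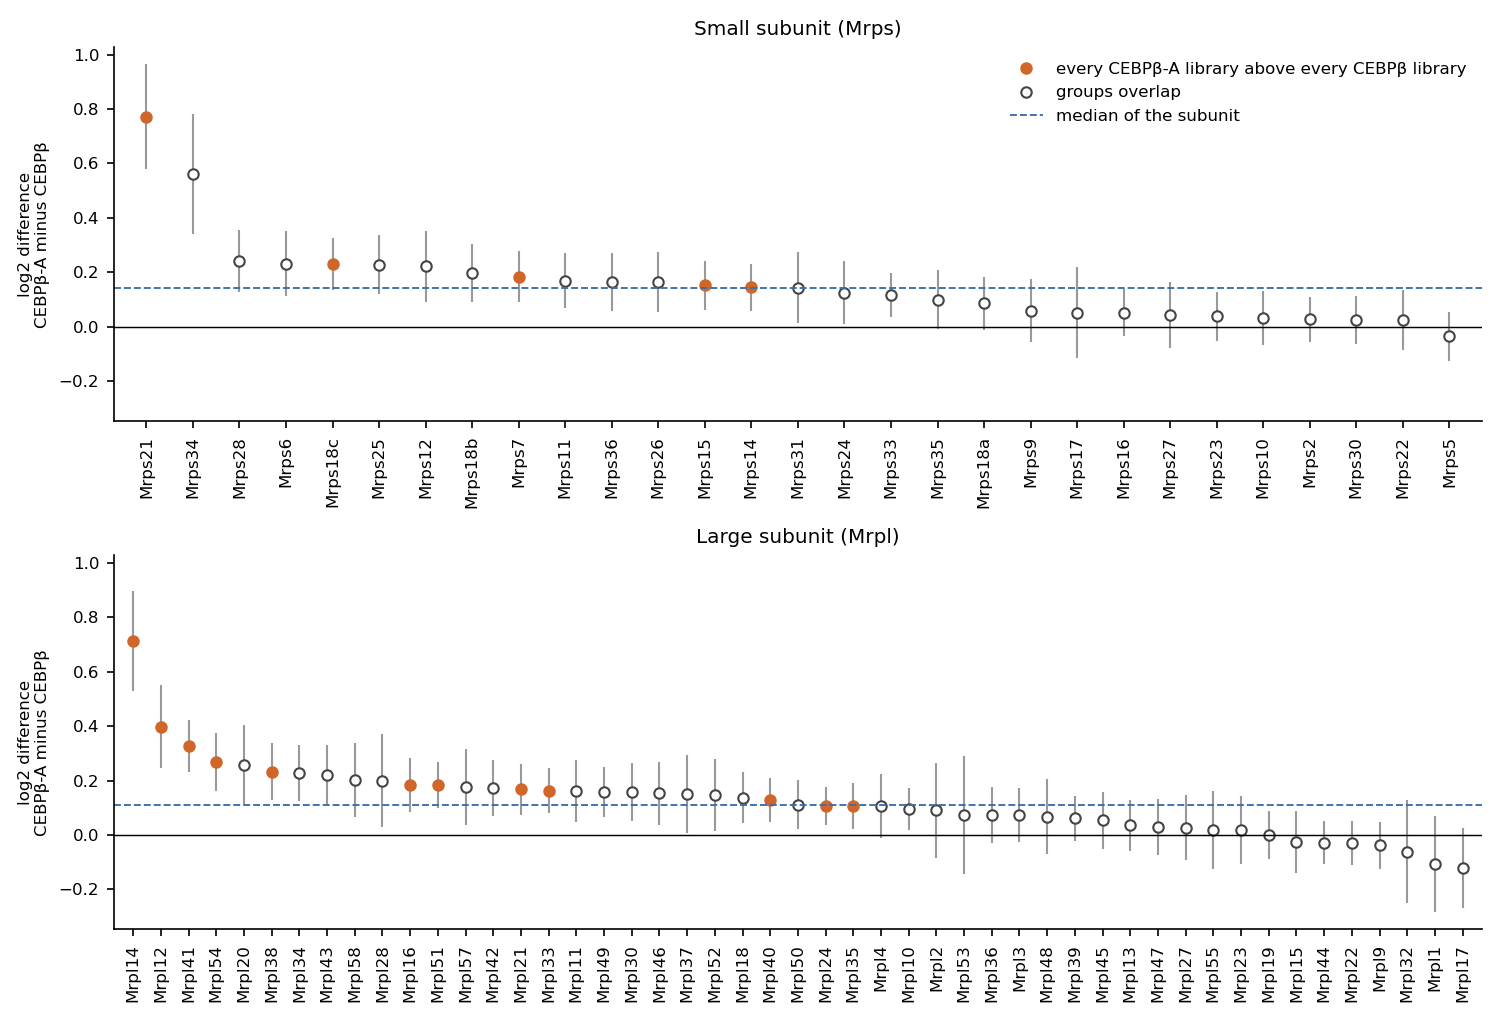
Log2 difference of each member between CEBPβ-A and CEBPβ with its standard error from limma, on the log2(FPKM + 1) scale, small subunit above and large subunit below. Filled points mark the 5 and 12 members whose CEBPβ-A libraries all lie above the CEBPβ libraries, the dashed line is the median of the subunit (0.14 and 0.11), and no member passed the threshold.

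Members with and without bacterial relatives were then set side by side, where 46.6% of all tested genes were above 0 and 7.89% separated upward. In the small subunit, members with a bacterial relative had a median log2 difference of 0.15 (15 of 16 above 0, 5 separated upward) and members added in mitochondria 0.12 (9 of 9 above 0, 0 separated). In the large subunit the medians were 0.097 (22 of 29 above 0, 7 separated) and 0.15 (18 of 19 above 0, 5 separated). Of the 33 members with a head-to-head partner, 24 had a partner that was tested. The partners had a median log2 difference of 0.028, with 13 of 24 above 0, against 46.6% of all tested genes. The members beside them had 0.16. Mrps11 and Mrpl46 are partners of each other and so count on both sides. Mrps11 and Mrpl46, which share a start region, had log2 differences of 0.17 and 0.15. Mrps12 had 0.22 and its partner Sars2 −0.10, and Mrpl43 had 0.22 and Twnk −0.011.

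Transcript length moved with the difference between groups. The median length was 1302 bases for the members, from 418 to 7300, and 2914 bases for all tested genes with a length. Across the 9570 genes with a length the Spearman correlation of length with the log2 difference was −0.54 (−0.33 without CEBPβ-A replicate 3), and across the 78 members −0.42 (−0.29). Genes are not independent replicates and all points share the same libraries, so these are descriptions. Among transcripts of up to 1000 bases the 25 members had a median log2 difference of 0.16 and the 626 other genes 0.15, with 24 of 25 above 0 against 81.8% and 7 of 25 separated upward against 20.8%. Between 1000 and 2000 bases the 28 members had 0.13 and the 2080 others 0.084, with 26 of 28 above 0 against 72.5% and 7 of 28 separated upward against 16.2%. Above 2000 bases the 25 members had 0.061 and the 6786 others −0.050, with 19 of 25 above 0 against 34.9% and 3 of 25 separated upward against 3.98%. The medians of members and other genes thus lay closest among the shortest transcripts and farthest apart among the longest, and the share of members above 0 was the greater in all 3 classes. Lengths are not matched within a class, and above 2000 bases members end at 7300 bases while other genes reach 40378. These differences were not tested. After the trend with length was removed from every library, the median was 0.043 in the small and 0.029 in the large subunit, with 20 of 29 and 35 of 49 members above 0 against 46.8% of all genes and a median of −0.010. Of the 17 members named by rule with a log2 difference of at least 0.1, 10 fell by over 1.5 times. Mrps15 went from 0.15 to 0.015, Mrps18c from 0.23 to 0.061, Mrps28 from 0.24 to 0.088 and Mrps12 from 0.22 to 0.079. Mrps36 went from 0.16 to 5.2e-04. In the large subunit Mrpl34 went from 0.23 to 0.054, Mrpl54 from 0.27 to 0.10 and Mrpl38 from 0.23 to 0.14. Mrpl41 went from 0.33 to 0.17 and Mrpl43 from 0.22 to 0.12. Mrps21 and Mrpl14 kept 0.58 and 0.54. In each CEBPβ-A library the correlation of length with the difference from the CEBPβ mean was negative over all genes (−0.23, −0.31 and −0.59 in replicates 1, 2 and 3).

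**Figure D4:**
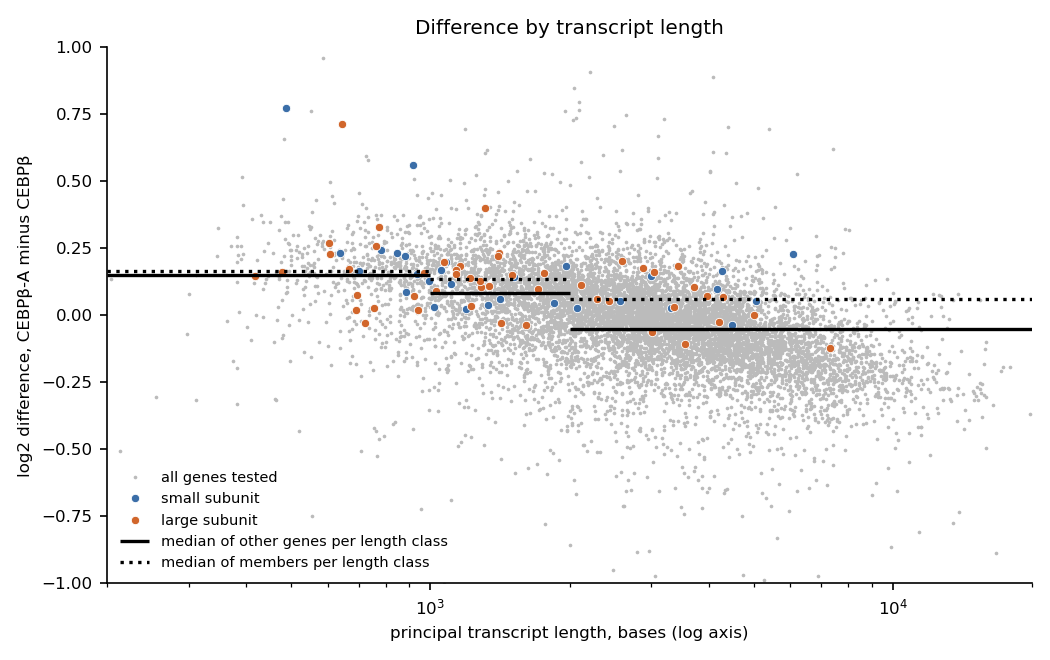
Log2 difference between CEBPβ-A and CEBPβ against the length of the principal transcript in bases (log axis), for all tested genes (grey), small subunit members (blue) and large subunit members (orange); a few genes beyond the axis limits are not drawn. Solid lines are the medians of other genes in 3 length classes (0.15, 0.084 and −0.050) and dotted lines those of the members (0.16, 0.13 and 0.061).

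Other components of mitochondrial translation did not all share the direction of the ribosomal proteins. None of the genes of these lists passed the limma test (0 upward and 0 downward of 96 tested). At an unadjusted p under 0.05 there were 2 higher and 0 lower, against 3.76% and 4.42% of all tested genes. Of all tested genes 46.6% were above 0, 7.89% were separated upward and 8.86% downward. Ribosomal proteins with other names had a median log2 difference of 0.12, with 4 of 5 above 0, 1 separated upward and 0 downward. Dap3, Chchd1 and Aurkaip1 of the small subunit had log2 differences of 0.12, 0.18 and 0.18. Chchd1 had 19.8, 18 and 18.8 FPKM in CEBPβ and 21.1, 20.5 and 22.9 in CEBPβ-A, groups that did not overlap. With the length trend removed the log2 difference came to 0.0055 for Chchd1, 0.061 for Aurkaip1 and 0.19 for Dap3. Translation factors had a median of 0.037 (17 tested, 10 above 0, 3 separated upward and 2 downward, Mtif2 among the latter). Among them Tufm, the elongation factor that brings aminoacyl-tRNA to the ribosome, had 13.1, 13 and 13.1 FPKM in CEBPβ and 15.1, 14.7 and 19.5 in CEBPβ-A, separated, with the CEBPβ libraries close together and CEBPβ-A replicate 3 well above the rest (log2 difference 0.30, SE 0.11, limma adjusted p = 0.588; 0.18 without replicate 3). Metap1d, which trims the first methionine, stood at 0.15 and Mtif2, the initiation factor that places the first tRNA, at −0.15. With the length trend removed Tufm, Metap1d and Mtif2 stood at 0.22, 0.044 and −0.16.

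Mitochondrial aminoacyl-tRNA synthetases had a median log2 difference of −0.047, with 5 of 18 tested above 0, and a median transcript of 2390 bases. Of these 18, 1 was separated upward and 1 downward. Of all tested genes 46.6% were above 0. Genes above 2000 bases that are not members had a median of −0.050, with 34.9% above 0. Yars2 had 5.34, 5.01 and 4.77 FPKM in CEBPβ and 4.52, 4.42 and 3.89 in CEBPβ-A (log2 difference −0.20, limma adjusted p = 0.588). Its groups did not overlap, the reverse of the ribosomal pattern, where 8.86% of all tested genes were separated downward. Wars2 stood at −0.27 and Aars2 at 0.28. Assembly and rRNA-modifying factors had a median of 0.043 (24 tested, 15 above 0, 0 separated upward and 1, Trub2, downward). Tfb1m, the methyltransferase of the small ribosomal RNA, stood at −0.26, Eral1, the chaperone of the same RNA, at 0.23 and the pseudouridine synthase Trub2 at −0.14.

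Genes for transcription and upkeep of mitochondrial DNA had a median of −3.8e-04 (10 tested, 5 above 0, 1 separated upward and 0 downward). The transcription factor Tfb2m stood at 0.20, the single-strand binding protein Ssbp1 at 0.13 and the nuclease Mgme1 at 0.12. Nuclear regulators had a median of −0.046 (9 tested, 3 above 0, 0 separated upward and 1, Gabpb1, downward). Of all tested genes 46.6% were above 0 and 8.86% separated downward. Gabpb1 and Gabpb2, subunits of the GABP complex, stood at −0.13 and −0.20 and Myc at 0.15. With the length trend removed Gabpb1, Gabpb2 and Myc stood at −0.14, −0.018 and 0.053. The 13 mitochondrially encoded messages, the templates of these ribosomes, had a median of 0.17 with 10 above 0 and 0 separated either way, but they followed the libraries differently. Their median relative to the CEBPβ mean was −0.050, 0.43 and −0.34 in CEBPβ replicates 1, 2 and 3 and 0.073, 0.43 and −0.012 in CEBPβ-A replicates 1, 2 and 3, so replicate 2 was high in both groups and the groups overlapped. Examples were mt-Co2 (1631, 1806 and 1390.3 FPKM in CEBPβ and 1769, 1941 and 1799.8 in CEBPβ-A), mt-Cytb and mt-Nd1, with log2 differences of 0.20, 0.17 and 0.22. With the length trend removed mt-Co2, mt-Cytb and mt-Nd1 stood at 0.033, 0.049 and 0.082.

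Complex I and the cytosolic ribosome, whose transcripts are mostly short, were described for comparison. Complex I subunits had a median log2 difference of 0.17 (33 of 36 above 0, 12 separated upward, median transcript 891.5 bases) and cytosolic ribosomal proteins 0.19 (85 of 87 above 0, 27 separated upward, 838 bases), and 0 genes of either passed the limma test (4 and 11 higher and 0 lower at an unadjusted p under 0.05, against 3.76% and 4.42% of all tested genes). Upward separation was seen in 7.89% of all tested genes. Their medians in CEBPβ-A replicates 1, 2 and 3 were 0.084, 0.093 and 0.34 for complex I and 0.071, 0.083 and 0.41 for the cytosolic ribosome, beside 0.083, 0.089 and 0.24 for all 78 mitochondrial ribosomal proteins. In replicates 1 and 2 the 3 groups stood at nearly the same height, and in replicate 3 the cytosolic ribosome was highest. Without replicate 3 the medians were 0.092 for complex I and 0.085 for the cytosolic ribosome, beside 0.077 for all 78 mitochondrial ribosomal proteins. Whether the groups differ from one another was not tested.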

How the data were processed

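RNA was measured in 6 libraries of mouse alveolar macrophages, 3 labelled CEBPβ and 3 CEBPβ-A, grouped by the sample titles. Per the labels' protocols, RNA was taken with Trizol and libraries were made with a stranded KAPA kit. The authors deposited FPKM values for 10539 protein-coding genes, per the file headers, and the submitters' processing notes name GRCm38. Aligner, FPKM program and annotation: not given in the sources used here. Depth is unknown, since the FPKM of low genes with 1 transcript showed no clear whole-read steps (highest periodicity 0.295 to 0.341 over 30 to 54 genes, where 1 is perfect), so no counting interval is given.

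The 9617 genes with a mean of at least 1 FPKM were tested on log2(FPKM + 1) with limma 3.58.1 (R 4.3.3), with an intensity trend. Tests were two-sided and Benjamini-Hochberg adjusted over all of these genes at 0.05. The fit was tried on simulated data with independent noise, no length trend and larger changes than most members show. That trial says nothing about smaller differences. Transcript lengths are those of the principal coding transcript in GENCODE M21 (GRCm38). Members and lists were chosen with earlier results of these data known. Named members are the 6 with the smallest p each way, the 3 highest and 3 lowest in level in each subunit, and 8 chosen for their roles, and from each other list the 3 with the smallest p. Others, such as Mrps11, Mrpl46 and Mrps18b, were named after their values were seen. Alternatives were other pseudocounts, filters, scalings and priors, the replicate block, removal of the length trend, and each library left out.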

Additional observations from a re-analysis of the deposited data

How the results depend on the processing

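No member of either subunit and no gene of the other lists of mitochondrial translation passed under any alternative tried, and no adjusted p of the 56 genes named by rule fell below 0.222. The median log2 difference of both subunits stayed above 0 in all of them. With the length trend removed it came to 0.043 in the small and 0.029 in the large subunit, a move beyond the spread between replicates. That spread is widened by CEBPβ-A replicate 3, so it is a lenient limit for the fit without this library. With single libraries left out the median ran from 0.091 to 0.17 in the small and from 0.054 to 0.16 in the large subunit. For both subunits it was lowest without CEBPβ-A replicate 3. Over all genes 5 passed, and 0 did with a mean of at least 5 FPKM, 2 after quantile normalization, 1 with the replicate block and 1 to 9 with single libraries left out (3 without CEBPβ replicate 1, 2 without CEBPβ replicate 3, and 1, 3 and 9 without CEBPβ-A replicates 1, 2 and 3). With the length trend removed the sign turned for Mrps5 (0.026), Mrpl17 (0.027), Mrpl15 (0.023), Mrps10 (−0.10), Mrps22 (−0.089), Mrpl27 (−0.13) and Mrps18a (−0.058), and after quantile normalization for Mrps5 (0.017) and Mrpl15 (0.018), while mt-Cytb came to 0. With single libraries left out the sign turned for Mrpl9 from −0.087 to 0.022, Mrps30 from −0.012 to 0.057, Mrpl32 from −0.25 to 0.14, Mrps5 from −0.080 to 0.0051, Mrps10 from −0.027 to 0.088, Mrps22 from −0.054 to 0.090, Mrpl17 from −0.25 to 0.039, Mrpl27 from −0.046 to 0.17, Mrpl15 from −0.093 to 0.078, Mrpl47 from −0.014 to 0.11, Mrpl1 from −0.23 to 0.087, Mrpl45 from −0.038 to 0.14 and Cebpb from −0.20 to 0.051. For these the cause was not tested. Libraries with the same replicate number correlated by 0.099, 0.25 and 0.26 in their deviations from the group means, not all above 0.1, so the numbers were not taken to pair libraries, although each library correlated best with its own number. With the replicate block the medians stayed at 0.14 and 0.11, 0 members passed and the smallest adjusted p of a member was 0.372. Other named genes fell by over 1.5 times without 1 CEBPβ library: Mrps12 (0.11) and Myc (0.052) without replicate 2, Mrpl34 (0.14) without replicate 1, and Mrps36 (0.068), Aurkaip1 (0.10), Eral1 (0.10), Mgme1 (0.065), Tfb2m (0.12), mt-Co2 (0.10), mt-Cytb (0.075) and mt-Nd1 (0.050) without replicate 3. Without CEBPβ-A replicate 3 the size of the lower values shrank for Wars2 (to −0.15), Trub2 (−0.084), Gabpb1 (−0.073) and Gabpb2 (−0.037), and near 0 Mrps18a and Mrps35 came to 0.018 and 0.023. Counts of separated members and the medians of complex I and the cytosolic ribosome without that library were added after the data were seen. Depth is unknown, and 3 libraries per group limit the precision.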
